A study of Mus musculus with 6 samples.

Results

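The genes described here encode the subunits of the Polycomb repressive complexes PRC1 and PRC2 together with the demethylases that remove the mark PRC2 makes, 35 of the 53390 genes for which the deposited files hold a transcript. Members were taken by gene name from a fixed list, and the rule uses no measured value. The study followed mouse embryonic stem cells moved between culture media and asked how their chromatin marks and their expression respond. All 6 libraries used here are poly(A)-selected RNA of 1 line called TKO, which lacks Dnmt1, Dnmt3a and Dnmt3b in both groups and comes from male J1 cells of the 129S4/SvJae strain, grown on gelatin without feeder cells. TKO-serum cells (3 samples) grew in medium with 15% FCS and 500 U/ml LIF. TKO-2i cells (3 samples) grew for 14 days in N2B27 medium with 1000 U/ml LIF, 1 µM PD0325901 against MEK and 3 µM CHIR99021 against GSK3. Serum, basal medium, LIF dose and inhibitors change together between the groups, so their parts cannot be told apart. The labels call the samples biological replicates and nothing says that they are separate cultures, so the p-values measure the spread between these samples.

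PRC2 methylates H3K27 and PRC1 ubiquitinates histone H2A near its C-terminal end. PRC2 has a core that carries the enzyme and exchangeable accessory subunits that bring it to chromatin, while PRC1 is built around a ubiquitin ligase whose Pcgf partner sets whether the complex is canonical, with Cbx and Phc proteins, or variant, with Rybp or Yaf2. In embryonic stem cells both complexes sit on CpG-rich promoters of developmental genes that are held silent.

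Total estimated counts were 38274042, 51932739 and 44827609 in TKO-serum replicates 1 to 3 and 46228700, 44180642 and 43896549 in TKO-2i replicates 1 to 3. The lowest estimated count of any Polycomb subunit gene in any sample was 98, so each of the 35 passed the filter on low counts and was tested. The deleted genes still gave reads in every sample: Dnmt1 had 25.7, 28.6 and 27.9 TPM in TKO-serum and 29.1, 34.6 and 29.3 TPM in TKO-2i. Dnmt3a had 21.3, 23.0 and 22.7 TPM in TKO-serum and 4.30, 5.19 and 4.54 TPM in TKO-2i, and Dnmt3b 18.8, 20.9 and 20.7 against 6.71, 9.53 and 8.49 TPM. Values per annotated transcript do not tell which exons were read, so these levels do not check the deletions.

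Of 9 markers of naive pluripotent cells, 6 were called higher in TKO-2i, 2 (Sox2 and Zfp42) lower and Pou5f1 neither way. Their summed level was 2929, 3014 and 2954 TPM in TKO-serum and 2897, 2952 and 2755 TPM in TKO-2i, with Pou5f1 the most abundant at 1249, 1249 and 1253 against 1057, 982 and 1012 TPM. The 6 primed epiblast markers summed to 534, 557 and 551 TPM in TKO-serum and 56.2, 58.3 and 61.1 TPM in TKO-2i, 5 of them lower and Cdh2 higher, and Dnmt3l was the most abundant at 486, 506 and 504 against 45.2, 46.5 and 49.2 TPM. The naive sums overlap between the conditions and the primed sums do not. Primitive endoderm markers summed to 14.6, 17.7 and 19.3 TPM in TKO-serum and 4.76, 5.80 and 4.69 TPM in TKO-2i, with 6 of 7 lower and Gata4 not called; the most abundant over the samples of TKO-serum was Dab2, at 5.41, 7.11 and 7.63 against 0.191, 0.305 and 0.368 TPM. Markers of feeder fibroblasts summed to 5.83, 6.48 and 5.94 TPM in TKO-serum and 4.12, 4.81 and 4.55 TPM in TKO-2i, most of it Thy1, and 4 of the 7 (Col3a1, Postn, Lum and Dcn) had too few counts to test. No listed marker was at 0 in all samples. In bulk RNA, fewer cells of a type and less RNA per cell cannot be told apart, and the part of the primed and endoderm markers' fall in the Polycomb values below was not tested.

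Within a condition the lowest correlation between samples was 0.994, and the highest between conditions was 0.959. TKO-2i replicate 2 stood apart from the other TKO-2i replicates in a way that went with transcript length, a comparison chosen after the values were seen: its CPM over the mean of the other TKO-2i replicates had a median log2 ratio of 0.14 over 1689 genes with an effective length of at least 4000 bases and -0.18 over 2567 genes of at most 1500 bases. For TKO-serum replicate 2 the same medians were 0.03 and -0.07. Among the Polycomb subunits, 34 of 35 had their highest TPM of the TKO-2i replicates in replicate 2 (Pcgf1 is the exception), which held for 65.9% of all tested genes, and 17 of 35 by CPM, against 40.2%. In TKO-serum 23 of 35 had their highest TPM in replicate 2, against 50.4% of tested genes. Without TKO-2i replicate 2 the test called 21 subunit genes higher and 11 lower, the same numbers as with it.

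By edgeR's quasi-likelihood test, Benjamini-Hochberg adjusted over all tested genes, 32 of the 35 Polycomb subunit genes (91.4%) were called at an adjusted p under 0.05, 21 higher and 11 lower in TKO-2i, and Rbbp4, Cbx6 and Pcgf3 were not. By limma on log2 TPM the numbers were 15 higher and 11 lower, and Ezh1, Cbx6 and Pcgf3 turned to the other side of 0. The background is high: 62.5% of all 18177 tested genes were called, 31.9% higher and 30.6% lower. Polycomb subunits are mostly well expressed, and among genes whose mean CPM was 10 or more the test called 65.0%, against 27 of the 30 subunits above that level. The CPM of 33 subunits did not overlap between the conditions, which held for 67.5% of tested genes. Changes of at least 1.5-fold were fewer: 16 subunits passed with such a change in either direction, 9 higher and 7 lower, where 37.3% of tested genes did so, and 16 passed with a smaller one. The median log2 fold change of CPM was 0.27 over the subunits, 0.01 over all tested genes and 0.11 over those whose mean CPM was 10 or more.

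**Figure D1:**
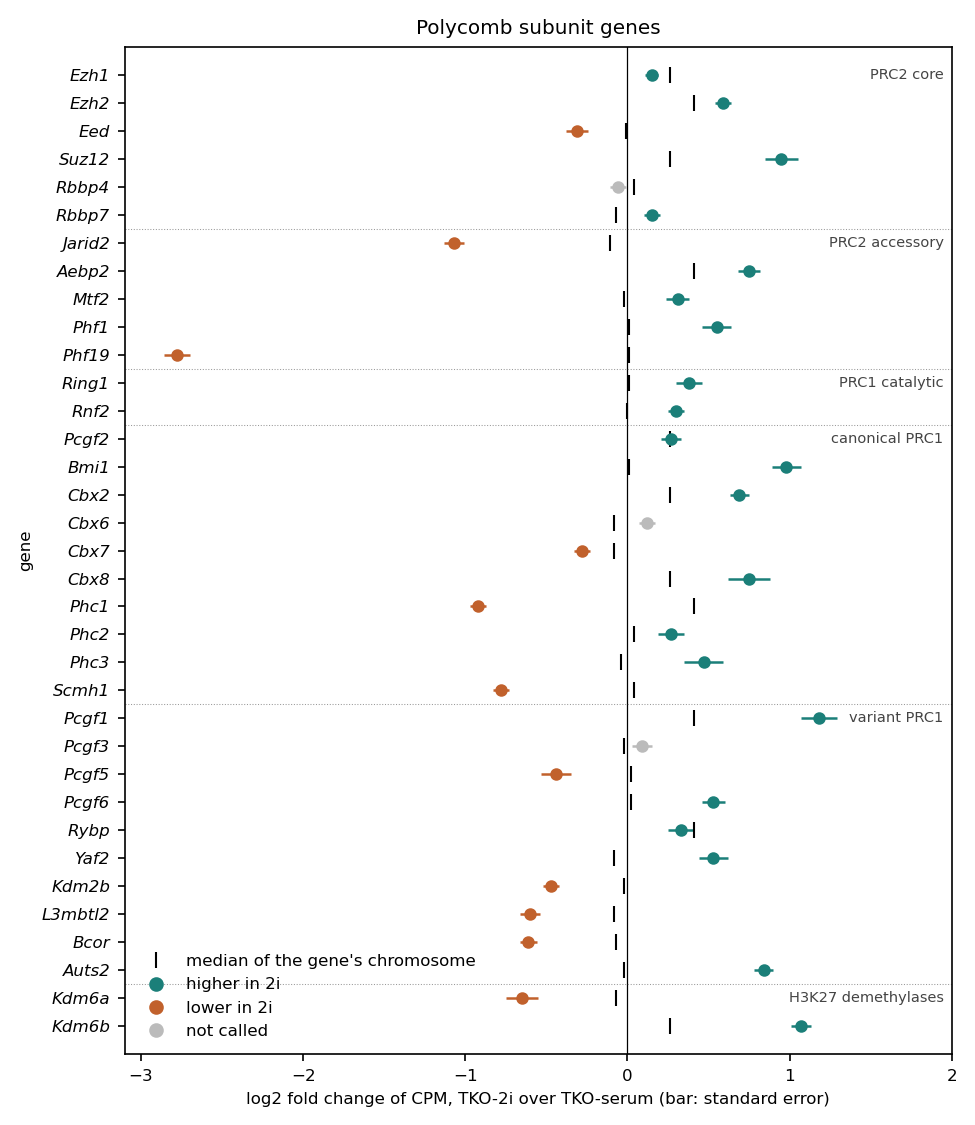
Log2 fold change of CPM between TKO-2i and TKO-serum for each Polycomb subunit gene with its standard error, beside the median of the tested genes on its chromosome. Ezh1, Cbx6 and Pcgf3 turn to the other side of 0 with limma on log2 TPM, and of the genes above 0 only Ezh1 and Rybp lie under their chromosome's median.

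Levels per length show how the set is arranged. Mean TPM ran from 0.720 (Phf19 in TKO-2i) to 260.1 (Rbbp4 in TKO-serum). In TKO-serum the order by mean TPM began with Rbbp4 (260.1 TPM), Phc1 (246 TPM) and Rbbp7 (196 TPM), and Suz12 was in place 8 with 134 TPM. In TKO-2i Suz12 stood in place 1 with 245 TPM, ahead of Rbbp4 at 239 TPM, though its 3 samples (221, 289.6 and 224 TPM) lie on both sides of those of Rbbp4 (235, 244 and 238 TPM), so these neighbours do not differ beyond their spread. Phc1 moved from place 2 to place 7 and Jarid2 from place 7 to place 15. Phf19, in place 30 in TKO-serum, was the lowest of the 35 in TKO-2i. The place of Rbbp4 rests in part on Rbbp4-203, a processed transcript of 722 bases. Rbbp4-203 held means of 47.4% of the gene's TPM in TKO-serum and 47.9% in TKO-2i.

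Among the 6 genes of the PRC2 core, 4 were called higher (1 of them, Ezh1, turns to -0.05 by limma on log2 TPM) and 1 lower, with a median log2 fold change of CPM of 0.15. Their summed level was 892, 1000.0 and 927 TPM in TKO-serum and 1021, 1177 and 1048 TPM in TKO-2i. Suz12, the scaffold that holds the enzyme and the accessory subunits, had 253, 286 and 259 CPM in TKO-serum and 464, 595 and 482 CPM in TKO-2i. Every TKO-2i sample lies above every TKO-serum sample, and TKO-2i replicate 2 is the highest of them. The log2 fold change of Suz12 CPM was 0.95 with a standard error of 0.10 (1.93-fold, adjusted p 5.2e-05 by edgeR's quasi-likelihood test, Benjamini-Hochberg adjusted), and it lay between 0.83 and 1.00 when each sample was left out in turn. Ezh2, the main methyltransferase of the complex, had 162, 165 and 161 CPM in TKO-serum and 239, 252 and 242 CPM in TKO-2i. The replicates of each condition lie close together and the conditions are well separated. Its CPM rose by 0.59 on the log2 scale (standard error 0.05, adjusted p 1.4e-05), and less the median of chromosome 6 the value is 0.18. Rbbp4, a histone-binding protein shared with other chromatin complexes and the most abundant core subunit by mean TPM over all 6 samples, had 421, 411 and 404 CPM in TKO-serum against 405, 375 and 408 CPM in TKO-2i. These ranges overlap, and Rbbp4 was not called (log2 fold change of CPM -0.06, standard error 0.05, adjusted p 0.37). The coding transcript Rbbp4-201 had 136, 136 and 134 TPM in TKO-serum and 126, 121 and 124 TPM in TKO-2i. Rbbp4-201 lay below Rbbp7-201 in every sample (165, 193 and 178 TPM in TKO-serum, 167, 196 and 184 TPM in TKO-2i).

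The remaining core genes are Eed, Ezh1 and Rbbp7. Eed, which binds the methylated histone tail and stimulates the enzyme, fell by 0.31 on the log2 scale of CPM (adjusted p 0.0037 by edgeR's quasi-likelihood test, Benjamini-Hochberg adjusted). With counts from length-scaled TPM it fell by 0.19 (adjusted p 0.023), and its TPM overlap between the conditions. Eed thus went the opposite way from its partners Ezh2 and Suz12, and it was the only core gene called lower. Ezh1, the alternative methyltransferase, was called with a log2 fold change of CPM of 0.15 (adjusted p 0.014), but by limma on log2 TPM its sign turned to -0.05. The Ezh1 call was lost without TKO-2i replicate 1 (0.14, adjusted p 0.065), without TKO-2i replicate 3 (0.14, 0.074), without TKO-serum replicate 1 (0.15, 0.054) and without TKO-serum replicate 2 (0.15, 0.069). Rbbp7, the close relative of Rbbp4, also had 0.15 (adjusted p 0.04), and its call was lost without TKO-2i replicate 1 (0.15, adjusted p 0.076), TKO-2i replicate 3 (0.12, 0.18), TKO-serum replicate 1 (0.14, 0.13) or TKO-serum replicate 3 (0.13, 0.15). Over the 15 alternative fits the Ezh1 call was lost in 8, down to 0.04 (adjusted p 0.57) with counts from length-scaled TPM, besides the 2 in which its sign turned. The Rbbp7 call was lost in 11 of the 15, with 0.13 (adjusted p 0.063) by DESeq2 and 0.07 (0.37) by limma on log2 TPM, so neither call holds under most settings.

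The 5 accessory genes of PRC2 were all called, 3 higher and 2 lower, and they held the lowest log2 fold change of the whole set. Phf19, a Polycomb-like protein whose Tudor domain binds methylated H3K36, had 16.3, 15.8 and 16.2 CPM in TKO-serum and 2.45, 2.25 and 2.30 CPM in TKO-2i. Its samples are tightly grouped within each condition and far apart between them. Phf19 CPM fell by 2.78 on the log2 scale (standard error 0.08, 6.89-fold lower, adjusted p 5.8e-08 by edgeR's quasi-likelihood test, Benjamini-Hochberg adjusted). Jarid2, a DNA-binding subunit that also serves as a substrate of the enzyme, had 551, 565 and 556 CPM in TKO-serum and 265, 283 and 246 CPM in TKO-2i. All TKO-2i samples are near 1 level and all TKO-serum samples near another, with no overlap. The log2 fold change of Jarid2 CPM was -1.07 (standard error 0.06, 2.11-fold lower, adjusted p 1.4e-06). Aebp2, a zinc finger protein that joins PRC2 in the same subcomplex as Jarid2, went the other way, with 84.8, 84.5 and 78.9 CPM in TKO-serum and 135, 153 and 131 CPM in TKO-2i. No sample of either condition reached the range of the other, and Aebp2 rose by 0.75 on the log2 scale of CPM (standard error 0.07, 1.69-fold, adjusted p 3.1e-05). Less the median of chromosome 6 the value is 0.34.

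Mtf2, the Polycomb-like protein that binds unmethylated CpG and the most abundant of the 5 accessory genes listed here by TPM, had 232, 243 and 229 CPM in TKO-serum and 276, 319 and 276 CPM in TKO-2i. The TKO-2i samples are the higher ones throughout, with replicate 2 on top. By edgeR's quasi-likelihood test, Benjamini-Hochberg adjusted, its log2 fold change of CPM was 0.31 (standard error 0.07, adjusted p 0.0041), and that of Phf1, the remaining Polycomb-like protein, was 0.55 (adjusted p 6.6e-04). The Polycomb-like genes were thus called in both directions, with Mtf2 and Phf1 higher and Phf19 lower in TKO-2i, but by limma on log2 TPM the Mtf2 call was lost (0.19, adjusted p 0.1). Summed over the 5 accessory genes, the level was 349, 387 and 367 TPM in TKO-serum and 319, 381 and 305 TPM in TKO-2i, ranges that overlap.

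**Figure D2:**
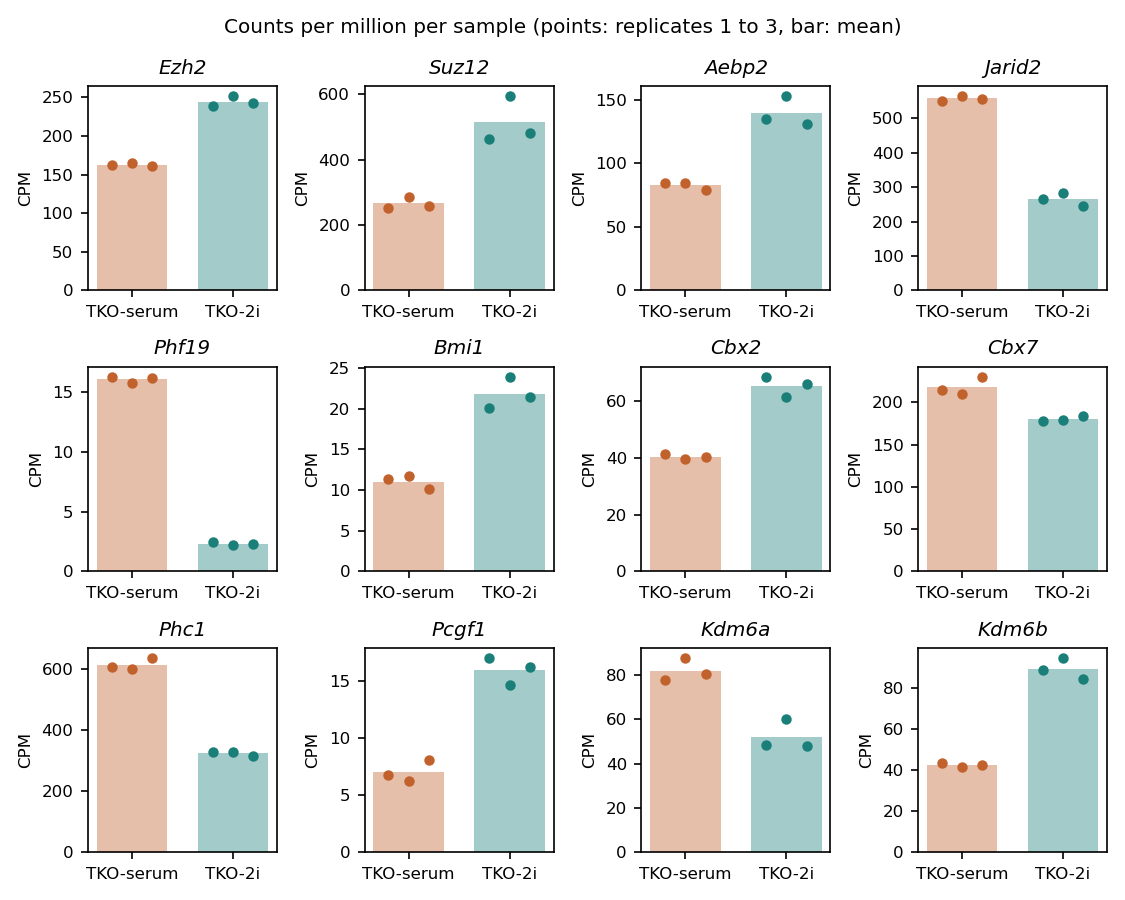
CPM in each sample for a selection of Polycomb subunit genes, with the mean of each condition as a bar. The genes shown were picked after their values were seen.

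PRC1 is built on the ubiquitin ligases Ring1 and Rnf2, and both were called higher. Rnf2, the more abundant of the pair by TPM, had 83.7, 86.6 and 81.3 CPM in TKO-serum and 104, 104 and 101 CPM in TKO-2i. The TKO-2i values are nearly equal and all lie above the TKO-serum values. Rnf2 CPM rose by 0.30 on the log2 scale (standard error 0.05, 1.23-fold, adjusted p 0.001 by edgeR's quasi-likelihood test, Benjamini-Hochberg adjusted), and Ring1 by 0.38 (standard error 0.08, adjusted p 0.0043). Their summed level was 67.1, 68.5 and 67.0 TPM in TKO-serum and 79.2, 80.9 and 75.3 TPM in TKO-2i.

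Canonical PRC1 is represented by 10 genes, of which 6 were called higher and 3 lower, with a median log2 fold change of CPM of 0.27. Phc1, whose sterile alpha motif lets complexes polymerise, was the most abundant of them by TPM and had 607, 599.5 and 637 CPM in TKO-serum against 329, 328 and 317 CPM in TKO-2i. The conditions are far apart and the TKO-2i samples nearly equal. Its CPM fell by 0.92 on the log2 scale (standard error 0.05, 1.89-fold lower, adjusted p 1.0e-06 by edgeR's quasi-likelihood test, Benjamini-Hochberg adjusted). Scmh1, which carries the same kind of motif and joins the Phc proteins, had 33.3, 31.6 and 32.4 CPM in TKO-serum and 18.7, 19.6 and 18.4 CPM in TKO-2i. These also do not overlap, and the log2 fold change of Scmh1 CPM was -0.78 (standard error 0.05, 1.71-fold lower, adjusted p 5.5e-06). Cbx7, a chromodomain protein that reads the PRC2 mark and the most abundant of its family by TPM, had 215, 209.7 and 230.3 CPM in TKO-serum and 178, 179 and 184 CPM in TKO-2i. All TKO-serum samples lie above the TKO-2i samples by a small margin, and Cbx7 fell by 0.28 on the log2 scale of CPM (standard error 0.05, adjusted p 0.0023). Because Phc1 and Cbx7 hold most of the transcripts of this group, its summed level was 469.7, 512 and 521 TPM in TKO-serum and 342, 392 and 334 TPM in TKO-2i, lower in each TKO-2i sample although more of its genes were called higher.

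The canonical genes called higher include Bmi1, the Pcgf partner also known as a repressor of the Ink4a locus, with 11.3, 11.7 and 10.1 CPM in TKO-serum and 20.1, 23.9 and 21.4 CPM in TKO-2i. Each TKO-2i sample is above each TKO-serum sample. Bmi1 CPM rose by 0.98 on the log2 scale (standard error 0.09, 1.98-fold, adjusted p 2.3e-05 by edgeR's quasi-likelihood test, Benjamini-Hochberg adjusted). Cbx2, a chromodomain protein that compacts nucleosomes, had 41.3, 39.4 and 40.4 CPM in TKO-serum and 68.5, 61.3 and 66.0 CPM in TKO-2i, again without overlap. The log2 fold change of Cbx2 CPM was 0.69 (standard error 0.06, 1.62-fold, adjusted p 1.2e-05), or 0.43 less the median of chromosome 11. Cbx8, another chromodomain protein and the lowest of the 35 by TPM in TKO-serum, had 2.93, 2.37 and 2.50 CPM there and 4.57, 3.89 and 4.64 CPM in TKO-2i. The gap between the conditions is narrower than for Cbx2 and the standard error larger (log2 fold change of CPM 0.75, standard error 0.13, 1.69-fold, adjusted p 9.0e-04). For Cbx8, also on chromosome 11, the value less the chromosome median is 0.49.

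Pcgf2, the most abundant Pcgf gene by TPM and the usual partner of Rnf2 in canonical PRC1 of these cells, had 76.5, 73.5 and 80.5 CPM in TKO-serum and 92.0, 90.7 and 95.9 CPM in TKO-2i. The samples do not overlap, and Pcgf2 CPM rose by 0.27 on the log2 scale (standard error 0.06, adjusted p 0.0027 by edgeR's quasi-likelihood test, Benjamini-Hochberg adjusted). Less the median of chromosome 11 the value is 0.01. Phc2 and Phc3, the less abundant relatives of Phc1, were called higher with log2 fold changes of CPM of 0.27 (adjusted p 0.023) and 0.47 (adjusted p 0.0091), but by limma on log2(TPM + 1) both calls were lost (Phc2 0.15, adjusted p 0.089, and Phc3 0.26, 0.16). The Phc2 call was also lost without TKO-2i replicate 1 (0.18, adjusted p 0.099), TKO-2i replicate 3 (0.25, 0.092), TKO-serum replicate 2 (0.24, 0.082) or TKO-serum replicate 3 (0.26, 0.075). Cbx6 was not called (log2 fold change of CPM 0.12, adjusted p 0.051), and by limma on log2 TPM its sign turned to -0.05.

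Variant PRC1 is represented by 10 genes as well, 5 called higher and 4 lower, with a median log2 fold change of CPM of 0.21. Pcgf1 defines the variant complex with Kdm2b and Bcor and had 6.72, 6.24 and 8.05 CPM in TKO-serum and 17.0, 14.6 and 16.2 CPM in TKO-2i. The lowest TKO-2i sample is well above the highest TKO-serum sample. With a log2 fold change of CPM of 1.18 (standard error 0.11, 2.27-fold, adjusted p 2.5e-05 by edgeR's quasi-likelihood test, Benjamini-Hochberg adjusted), Pcgf1 had the largest rise of the 35. Less the median of each gene's chromosome, Pcgf1 had 0.77 and lay below Bmi1 (0.97), Auts2 (0.86) and Kdm6b (0.80). Bcor, a corepressor and partner of Pcgf1, had 117, 114 and 114 CPM in TKO-serum and 73.3, 79.2 and 74.4 CPM in TKO-2i. The direction is the opposite of that of Pcgf1 in every sample. Bcor CPM fell by 0.61 on the log2 scale (standard error 0.05, 1.52-fold lower, adjusted p 2.1e-05), and Kdm2b, whose zinc finger binds unmethylated CpG and brings this complex to DNA, by 0.47 (standard error 0.05, adjusted p 7.0e-05), or by 0.25 with counts from length-scaled TPM. Pcgf1 was thus higher and both Kdm2b and Bcor lower in TKO-2i. Bcorl1, the paralogue of Bcor that is not among the 35 and was named after its values were seen, was higher (20.2, 20.5 and 21.1 CPM in TKO-serum and 34.0, 35.4 and 33.3 CPM in TKO-2i, log2 fold change 0.73, adjusted p 6.1e-06).

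L3mbtl2, a histone-binding protein of the Pcgf6 complex and the most abundant variant gene by mean TPM over all 6 samples (Rybp is higher in TKO-2i alone), had 370.3, 355 and 365 CPM in TKO-serum and 249.9, 220.2 and 248 CPM in TKO-2i. The TKO-2i samples all lie lower, replicate 2 lowest. The log2 fold change of L3mbtl2 CPM was -0.60 (standard error 0.06, 1.52-fold lower, adjusted p 4.8e-05 by edgeR's quasi-likelihood test, Benjamini-Hochberg adjusted), whereas Pcgf6 itself had 0.53 (standard error 0.07, adjusted p 1.8e-04). Auts2, which joins the complexes of Pcgf3 and Pcgf5 and is linked there to gene activation, had 15.7, 16.7 and 15.5 CPM in TKO-serum and 28.0, 28.1 and 29.6 CPM in TKO-2i. The replicates of each condition are close and the conditions do not overlap. Auts2 CPM rose by 0.84 on the log2 scale (standard error 0.06, 1.79-fold, adjusted p 5.0e-06). Of its Pcgf partners, Pcgf5 was called lower (log2 fold change of CPM -0.44, adjusted p 0.0027), and Pcgf3 was not called (0.09, adjusted p 0.22) and turned to -0.04 by limma on log2(TPM + 1).

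Rybp and Yaf2 take the place of a Cbx protein in variant PRC1 and raise its ligase activity. Rybp, the more abundant by TPM, had 178, 201 and 183 CPM in TKO-serum and 222, 260.2 and 227 CPM in TKO-2i. Replicate 2 is the highest in each condition and the conditions do not overlap. Rybp CPM rose by 0.33 on the log2 scale (standard error 0.08, adjusted p 0.0052 by edgeR's quasi-likelihood test, Benjamini-Hochberg adjusted), and Yaf2 by 0.53 (standard error 0.09, adjusted p 9.8e-04). By limma on log2(TPM + 1) the Rybp call was lost (0.23, adjusted p 0.092), less the median of chromosome 6 its value turned to -0.08, and the TPM of Rybp overlap between the conditions. Summed over the 10 variant genes, the level was 393, 436 and 416 TPM in TKO-serum and 364, 420.0 and 366 TPM in TKO-2i, ranges that overlap.

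The demethylases that remove the PRC2 mark moved in opposite directions. Kdm6a, the more abundant by TPM, had 77.4, 87.6 and 80.5 CPM in TKO-serum and 48.3, 60.1 and 47.7 CPM in TKO-2i. All TKO-2i samples are lower, with replicate 2 nearest to TKO-serum. Kdm6a CPM fell by 0.65 on the log2 scale (standard error 0.10, 1.57-fold lower, adjusted p 3.9e-04 by edgeR's quasi-likelihood test, Benjamini-Hochberg adjusted). Kdm6b had 43.6, 41.7 and 42.6 CPM in TKO-serum and 88.7, 94.9 and 84.5 CPM in TKO-2i. Here every TKO-2i sample is higher, and the log2 fold change of Kdm6b CPM was 1.07 (standard error 0.06, 2.10-fold, adjusted p 1.2e-06). The sum of both was 40.2, 46.0 and 42.2 TPM in TKO-serum and 33.9, 44.6 and 33.7 TPM in TKO-2i, with overlap.

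Most of the paralogues grouped here can take the same place in a complex, while the demethylases have the activity in common, and the share of each in the summed TPM of its group was compared between the conditions. Kdm6a held 77.9%, 80.3% and 78.8% of the TPM of the demethylases in TKO-serum and 55.2%, 55.2% and 54.9% in TKO-2i, with Kdm6b making up the rest. The difference is -23.9 percentage points (exact permutation p 0.1, the smallest that 3 samples against 3 can give), the largest among the most abundant members of the 9 groups. By estimated counts Kdm6a held 64.0%, 67.8% and 65.4% in TKO-serum and 35.3%, 38.8% and 36.1% in TKO-2i. Which demethylase held the larger share in TKO-2i thus depends on the unit. Cbx7 held 77.4%, 78.1% and 78.8% of the Cbx group in TKO-serum and 68.8%, 69.1% and 68.9% in TKO-2i. What Cbx7 gave up went mostly to Cbx2, which held a mean of 9.62% in TKO-serum and of 16.4% in TKO-2i (exact permutation p 0.1 for each). Phc1 held 93.1%, 93.5% and 93.6% of the Phc group in TKO-serum and 84.8%, 85.7% and 84.2% in TKO-2i, and Phc2 the larger part of the remainder (exact permutation p 0.1). In each of these groups the samples of a condition lie within a few points of one another and the conditions do not overlap.

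Among the Pcgf genes, Pcgf2 held the largest share in both media, 37.4%, 35.5% and 37.9% of summed TPM in TKO-serum and 33.2%, 32.8% and 33.8% in TKO-2i, followed by Pcgf6 with means of 28.6% and 30.7%. The difference for Pcgf2 was -3.68 percentage points by TPM (exact permutation p 0.1) but -1.49 by estimated counts, where its samples overlap between the conditions. Pcgf1 held 7.67%, 7.79% and 9.54% in TKO-serum and 15.0%, 12.8% and 15.0% in TKO-2i, and Pcgf5 8.99%, 9.25% and 8.67% against 4.72%, 4.70% and 4.24%. No sample of Pcgf1 or Pcgf5 crosses into the range of the other condition (exact permutation p 0.1 for each). In PRC2, Ezh2 held 89.1%, 88.2% and 88.4% of the TPM it shares with Ezh1 in TKO-serum and 92.9%, 92.0% and 92.6% in TKO-2i, and Mtf2 92.7%, 93.5% and 93.4% of the Polycomb-like group against 96.5%, 96.4% and 96.1%. The share of Phf19 in the latter group was 4.75%, 3.84% and 3.73% in TKO-serum and 0.414%, 0.353% and 0.392% in TKO-2i, again without overlap (exact permutation p 0.1). Rbbp4 held a mean of 57.1% beside Rbbp7 in TKO-serum and 53.9% in TKO-2i, without overlap (exact permutation p 0.1). That share includes Rbbp4-203, a processed transcript of 722 bases with means of 47.4% and 47.9% of Rbbp4 TPM. By estimated counts Rbbp4 held 62.8%, 60.8% and 62.0% in TKO-serum and 59.7%, 57.3% and 58.4% in TKO-2i. The shares of Rnf2 beside Ring1 (means of 90.6% and 89.2%, exact permutation p 0.3) and of Rybp beside Yaf2 (90.3% and 89.3%, p 0.4) overlap between the conditions. Those of Rnf2 no longer do without TKO-2i replicate 3, nor those of Rybp without TKO-2i replicate 2. With leave-one-out the differences ran from -2.11 to -0.689 percentage points for Rnf2 and from -1.48 to -0.374 for Rybp.

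**Figure D3:**
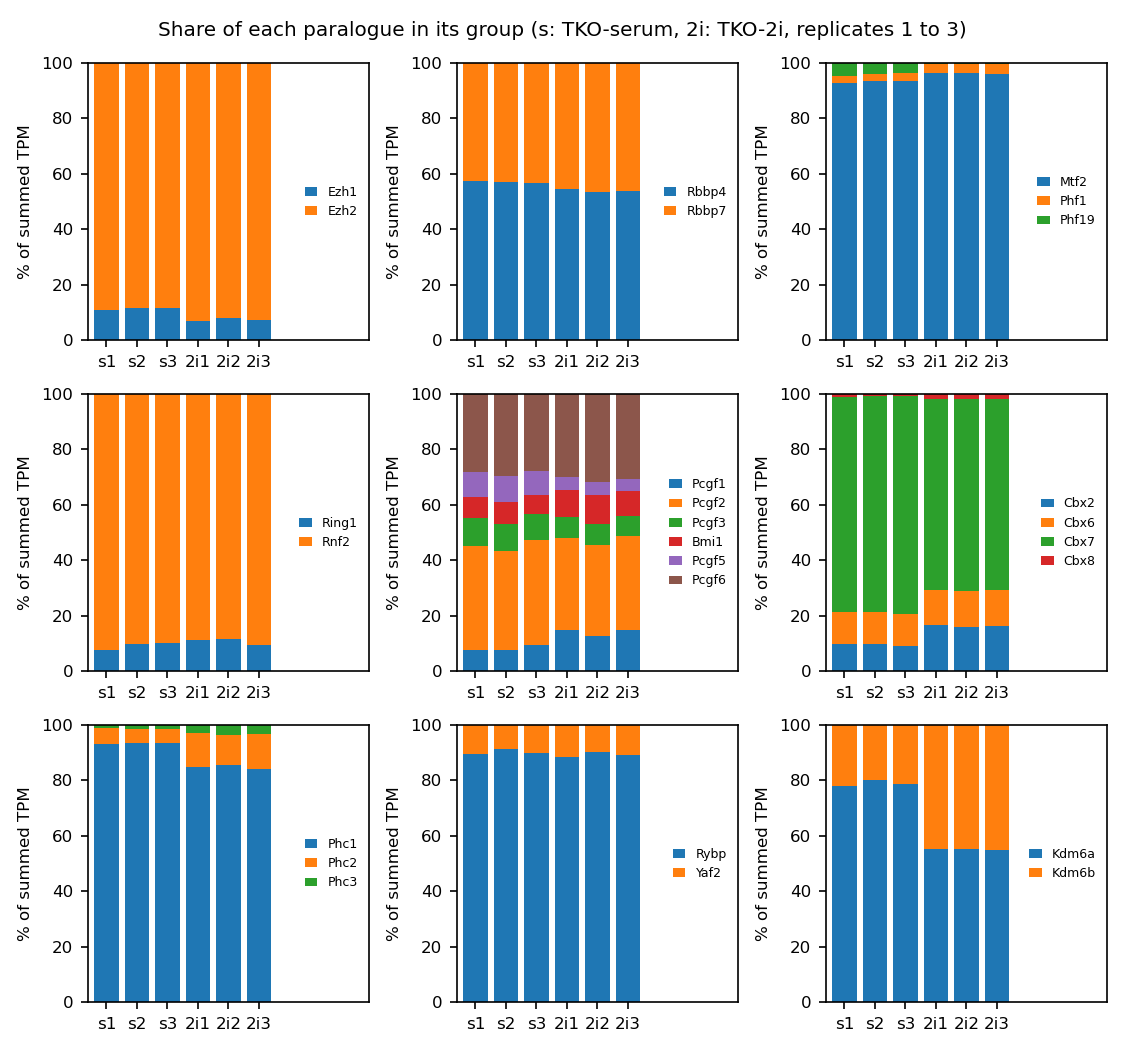
Share of each paralogue in the summed TPM of its group in every sample. The top member's share does not overlap between TKO-serum and TKO-2i in 7 of the 9 groups.

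Genes of chromosomes 6 and 11 were shifted as a whole. The median log2 fold change of CPM over tested genes was 0.41 on chromosome 6 (866 genes) and 0.26 on chromosome 11 (1399 genes), while the other 18 chromosomes had medians between -0.15 and 0.05. These chromosomes, picked out after their medians were seen, carry 11 of the 35 Polycomb subunits, of which 10 were called higher and Phc1 lower, where 52.5% of their 2265 tested genes were called higher and 19.8% lower. On the other chromosomes lie 24 subunits, 11 called higher, 10 lower and 3 neither way, where 29.0% of 15912 tested genes were called higher and 32.1% lower. Less the median of its chromosome, the log2 fold change of Ezh2 was 0.18 in place of 0.59, that of Suz12 0.69 in place of 0.95, and that of Pcgf1 0.77 in place of 1.18. For Aebp2 it was 0.34 in place of 0.75, for Cbx2 0.43 in place of 0.69, for Cbx8 0.49 in place of 0.75 and for Kdm6b 0.80 in place of 1.07. Pcgf2 was at 0.01, and Ezh1 and Rybp turned to -0.11 and -0.08. Phc1, on chromosome 6, went from -0.92 to -1.33. The part of these chromosome-wide shifts in the values of the subunits was not tested. The changes of Phf19 (-2.80), Bmi1 (0.97), Auts2 (0.86) and Scmh1 (-0.82) differ by less than their standard error from those without the chromosome median, while Jarid2 went from -1.07 to -0.96.

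At the level of transcripts, 180 of the 295 annotated transcripts of the Polycomb subunits had enough counts to be tested, and 62 of them (34.4%) were called, 27 higher and 35 lower, against 23.5% of all 48564 tested transcripts. The division of reads between isoforms is an estimate, so these values are less certain than those of genes. Of the called transcripts, 22 in 15 genes had a fold change of at least 1.5 and held at least 10% of the gene's TPM in a condition, 11 higher and 11 lower. For most of these genes the transcript moved as the gene did: Kdm6b-201, with means of 93.7% and 96.5% of the gene's TPM in TKO-serum and TKO-2i, had 8.11, 8.73 and 8.34 TPM in TKO-serum and 14.9, 19.4 and 14.3 TPM in TKO-2i. Jarid2-208 had 99.9, 106 and 103 TPM in TKO-serum and 45.3, 51.9 and 43.8 TPM in TKO-2i, and Phf19-201 4.14, 4.96 and 4.93 against 0.679, 0.754 and 0.645 TPM. In each of these the conditions do not overlap. By edgeR's quasi-likelihood test, Benjamini-Hochberg adjusted over transcripts, the log2 fold changes were 1.02 for Kdm6b-201 (adjusted p 2.4e-04), -1.08 for Jarid2-208 (1.3e-04) and -2.70 for Phf19-201 (7.8e-05).

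In Phc1, Cbx7 and Kdm2b, transcripts of the same gene had changes of different size. Phc1-209, a short coding transcript, had 28.5, 33.6 and 30.5 TPM in TKO-serum and 4.90, 8.19 and 5.39 TPM in TKO-2i, and its share of Phc1 TPM went from a mean of 12.6% to 5.44%. By edgeR's quasi-likelihood test, Benjamini-Hochberg adjusted over transcripts its log2 fold change was -2.27 (adjusted p 1.8e-04), against -0.80 (7.2e-04) for Phc1-215, the transcript with 41.6% and 50.5% of the gene. Cbx7-201 fell by 0.76 on the log2 scale (adjusted p 0.0015), from 19.4, 24.1 and 19.3 TPM in TKO-serum to 10.1, 13.9 and 11.6 TPM in TKO-2i, while Cbx7-203 was not called (log2 fold change -0.07, adjusted p 0.75). Kdm2b-203, chosen after its values were seen, had 8.80, 7.40 and 8.14 TPM in TKO-serum and 0.837, 1.66 and 0.279 TPM in TKO-2i (log2 fold change -3.14, adjusted p 0.0078), while Kdm2b-201, with means of 49.0% and 60.6% of the gene's TPM, had 38.6, 41.5 and 40.6 against 36.9, 41.6 and 39.2 TPM and was not called (0.03, adjusted p 0.79). Kdm2b-203 starts further upstream, at position 122988533 of chromosome 5 on the minus strand, and Kdm2b-201 at 122900355. Whether transcripts of 1 gene differ from each other in their change was not tested.

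Bcor had 3 named transcripts, all lower: Bcor-204 (log2 fold change -0.97, adjusted p 2.4e-04 by edgeR's quasi-likelihood test, Benjamini-Hochberg adjusted over transcripts), Bcor-201 (-1.66, 0.0031) and Bcor-207 (-2.25, 0.047). Of Auts2, Auts2-209 (1.08, adjusted p 0.0039), Auts2-204 (1.31, 0.0063) and Auts2-208 (0.74, 0.0096) were higher. In both genes the transcripts named so far follow the direction of the gene. Bcor-202, chosen after its values were seen, goes the other way without being called (log2 fold change 3.63, adjusted p 0.15), with a mean of 1.34% of Bcor TPM in TKO-serum and 28.5% in TKO-2i. Mtf2, which has no transcript within the naming rule, is the only subunit with called transcripts in both directions, 4 higher and 2 lower. Ezh2 had Ezh2-213, a short transcript with a retained intron (0.92, adjusted p 0.0027), and the coding Ezh2-202 (0.67, 0.0017), and Aebp2 had Aebp2-201 (0.87, 0.0013) and Aebp2-207 (1.03, 0.019). The single transcripts named for the other genes were Cbx2-201 (0.65, adjusted p 0.0026), Pcgf1-202 (1.02, 0.0041), Suz12-201 (0.99, 0.001), Scmh1-210 (-1.48, 0.013), L3mbtl2-201 (-0.66, 0.0035) and Kdm6a-208 (-0.78, 0.017). These too followed the direction of their genes. The call of Bcor-207 was lost without TKO-2i replicate 1 (-2.27, adjusted p 0.12), TKO-serum replicate 1 (-2.31, 0.11), TKO-serum replicate 2 (-2.16, 0.13) or TKO-serum replicate 3 (-2.34, 0.11), and that of Aebp2-207 without TKO-2i replicate 3 (1.05, 0.062), TKO-serum replicate 1 (0.96, 0.066) or TKO-serum replicate 3 (0.97, 0.069). Scmh1-210 lost its call without TKO-2i replicate 3 (-1.41, 0.061), and Kdm6a-208 without TKO-serum replicate 1 (-0.71, 0.057) or TKO-serum replicate 2 (-0.78, 0.057). The number of called subunit transcripts itself depends on the samples: it was 39 without TKO-2i replicate 3 and 39 without TKO-serum replicate 1, and 41 without TKO-serum replicate 2 or without TKO-serum replicate 3.

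How well a gene can be told from others by its sequence was read from the annotated transcripts. Of the 35 subunits, 28 share under 5% of their distinct words of 31 bases with transcripts of other genes, and the median is 0.384%. Bmi1 shares the most, 28.2%, nearly all with Gm5946, and Pcgf1 shares 23.1% with Gm8930. Rbbp7 shares 11.6% with Gm6382 and Rybp 10.8%, mostly with Rybp-ps. In the deposited values Gm5946, Gm8930 and Gm6382 are listed at 0 TPM in all 6 samples and Rybp-ps has at most 0.161 TPM, so almost no reads were assigned to the copies. On the genome, 9 subunits overlap an annotated gene on the same strand and 17 a gene on the other strand. The library kit keeps the strand, but whether the quantifier used it is not stated, so values of overlapping and antisense genes are uncertain.

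The RefSeq promoter windows, from 250 bases before to 50 bases after a start, cover 29 of the 35 genes with 42 windows; Cbx2, Pcgf1, Rybp, Yaf2, Auts2 and Kdm6b have none in the table. Member windows hold a median of 23 CpG and 64.3% G and C, against 7 CpG and 52.7% over all 32851 windows, and 34 of the 42 member windows (81.0%) hold at least 15 CpG, against 34.6% of all windows. The genes without such a window are Pcgf2 with 10 CpG and Phc1 with 9. On either strand, with overlaps counted, the E2F site TTTCCCGC lies in the windows of Suz12 and Phf19 and in 1.07% of all windows, and the E2F site TTTGGCGC in that of Ezh2 and in 0.514%. The TCF/LEF site ATCAAAG lies in the window of Phc1 and in 3.73% of all windows. The STAT site TTCCNGGAA lies in no member window and in 1.15% of all windows. A match describes the sequence and does not show binding.

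The windows of the genes with the largest changes that have an entry are printed to show the CpG, the letters that the subunits Kdm2b and Mtf2 bind. The choice of these genes was made after their values were seen. Each runs from 5′ to 3′ on the gene's strand in GRCm38.p6, with CpG in capitals: Bmi1 at chr2:18676768-18677067 (plus strand, 23 CpG) and Suz12 at chr11:79992856-79993155 (plus strand, 41 CpG), both higher in TKO-2i, and Phf19 at chr2:34913927-34914226 (minus strand, 38 CpG), Jarid2 at chr13:44730524-44730823 (plus strand, 24 CpG, the window with more CpG of its 2) and Phc1 at chr6:122340178-122340477 (minus strand, 9 CpG), all lower.
Bmi1: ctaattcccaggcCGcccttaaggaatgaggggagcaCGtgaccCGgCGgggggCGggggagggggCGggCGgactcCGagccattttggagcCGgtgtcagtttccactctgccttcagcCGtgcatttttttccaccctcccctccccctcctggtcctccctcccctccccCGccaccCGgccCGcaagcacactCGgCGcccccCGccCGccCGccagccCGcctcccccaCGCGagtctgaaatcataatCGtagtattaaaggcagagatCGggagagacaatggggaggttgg
Suz12: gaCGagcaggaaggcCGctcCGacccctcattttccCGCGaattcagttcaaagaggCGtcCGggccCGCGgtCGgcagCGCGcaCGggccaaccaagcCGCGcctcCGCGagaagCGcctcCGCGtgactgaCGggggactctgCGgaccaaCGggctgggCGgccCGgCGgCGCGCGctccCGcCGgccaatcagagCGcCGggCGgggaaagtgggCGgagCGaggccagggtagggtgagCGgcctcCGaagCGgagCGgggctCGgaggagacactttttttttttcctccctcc
Phf19: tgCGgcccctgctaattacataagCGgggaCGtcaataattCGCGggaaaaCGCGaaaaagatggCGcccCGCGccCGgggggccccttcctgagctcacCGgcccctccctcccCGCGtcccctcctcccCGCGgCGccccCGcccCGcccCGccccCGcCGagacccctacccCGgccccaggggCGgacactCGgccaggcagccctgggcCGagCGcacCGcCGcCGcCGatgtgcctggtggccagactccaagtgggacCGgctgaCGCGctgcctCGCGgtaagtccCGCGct
Jarid2: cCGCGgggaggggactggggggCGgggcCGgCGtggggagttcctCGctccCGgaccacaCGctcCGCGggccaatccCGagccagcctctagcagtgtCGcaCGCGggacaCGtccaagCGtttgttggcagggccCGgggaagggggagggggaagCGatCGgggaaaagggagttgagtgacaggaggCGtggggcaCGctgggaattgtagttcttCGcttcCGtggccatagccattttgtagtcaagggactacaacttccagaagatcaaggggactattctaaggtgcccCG
Phc1: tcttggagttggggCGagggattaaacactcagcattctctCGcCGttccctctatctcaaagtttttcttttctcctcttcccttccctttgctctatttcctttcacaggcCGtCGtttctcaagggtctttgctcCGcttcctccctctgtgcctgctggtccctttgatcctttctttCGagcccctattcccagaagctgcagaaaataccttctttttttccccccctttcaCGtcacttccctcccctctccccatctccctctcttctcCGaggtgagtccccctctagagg

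Genes that work with the Polycomb complexes but are not among the 35 were listed for comparison. Of 34 tested partners of PRC2 and PRC1 and members of the deubiquitinase that reverses PRC1's mark, 10 were higher and 8 lower. This is 52.9%, against 62.5% of all tested genes, and their median log2 fold change of CPM was 0.03. The PRC2 partners Epop and Lcor were not called (log2 fold changes of CPM 0.02 and -0.09). By TPM, Epop (372, 371 and 386 in TKO-serum, 341, 355 and 337 in TKO-2i) lay above Mtf2 in every sample. Sfmbt2, a protein with histone-binding domains, had 31.3, 36.3 and 31.5 CPM in TKO-serum and 62.1, 77.8 and 62.9 CPM in TKO-2i (log2 fold change 1.03, adjusted p 3.5e-05 by edgeR's quasi-likelihood test, Benjamini-Hochberg adjusted). Asxl3 and Foxk1, of the deubiquitinase, had log2 fold changes of CPM of -1.46 (adjusted p 3.0e-04) and -0.88 (1.0e-05). The complexes that methylate H3K4, a mark of active promoters, were represented by 16 genes. Of these, 5 were higher and 1 lower (37.5%, against 62.5% of all tested genes), with a median log2 fold change of CPM of 0.08. The most changed of the called genes was Ncoa6, with 38.9, 41.1 and 42.9 CPM in TKO-serum and 86.1, 104 and 95.1 CPM in TKO-2i (log2 fold change 1.22, adjusted p 3.2e-06). Next came Paxip1 (0.56, 2.7e-05) and Hcfc2 (0.43, 0.0017). The remaining called genes, named after their values were seen, were Rbbp5 (0.33) and Men1 (0.18), higher, and Setd1b (-0.39), lower. Wdr5, also a subunit of these complexes, was listed only among the PRC1 partners and is not among the 16. Named after its values were seen, Wdr5 was higher (log2 fold change of CPM 0.79, adjusted p 4.5e-06 by edgeR's quasi-likelihood test). Whether these lists differ from the 35 Polycomb subunits or from all tested genes was not tested.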

How the data were processed

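RNA of 3 TKO-2i and 3 TKO-serum samples was sequenced. For each sample the authors deposited estimated counts of reads per transcript, which are not normalized and mostly not whole, and the authors' TPM, scaled for effective length and to a fixed sum. The quantifier and its index are not given in the sources used here; the submitters' processing notes give the build mm10. Transcript identifiers were looked up in GENCODE M21; those not found held 0.0473% to 0.0643% of a sample's estimated counts and were left out. Estimated counts and TPM were summed per gene with Python 3.11.15, pandas 2.3.3 and numpy 2.4.6. Summed estimated counts were rounded, filtered with filterByExpr and tested in edgeR 4.0.16 (R 4.3.3; TMM, glmQLFit, glmQLFTest, condition as the only factor) with Benjamini-Hochberg adjustment over all tested genes, and a gene was called at an adjusted p under 0.05. Transcripts were tested in the same way over all tested transcripts. CPM use TMM-normalized totals, and 3 counts in a sample are 0.0578 to 0.0784 CPM. Paralogue shares were computed from TPM and compared by exact permutation over the 6 samples. The fit was tested on simulated data.

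Per-sample values are given for members called with a fold change of at least 1.5 and for the most abundant member of each group of the complexes and of each paralogue group by mean TPM; for each other list the 3 called genes with the largest change and a mean CPM of at least 1 are named; transcripts are named when called with a fold change of at least 1.5 and at least 10% of the gene's TPM in a condition. Members, lists, tests, alternatives and this rule were set before the deposited values were read for this comparison, but with earlier results of these data known. As alternatives, each of the 6 samples was left out, the replicate number was added as a block, and limma 3.58.1 was run with log2(TPM + 0.1) or log2(TPM + 1). DESeq2 1.42.0 was used for the test or only for its size factors, counts were remade from length-scaled TPM, coding genes were fitted alone, the count filter was dropped or set to 10 counts per sample, and shares were taken from estimated counts. Ezhip had no match by name in the annotation. Figures were drawn with matplotlib 3.10.9. Other cell lines and data types of the study were not used here.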

Additional observations from a re-analysis of the deposited data

How the results depend on the processing

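Of 525 values (35 members under 15 alternative fits), 487 kept their direction and side of the threshold, 31 were no longer past it, 1 (Cbx6) was newly past it and 6 turned in direction; 27 members kept both under every alternative fit. The number of members called lower was 11 under each of them, and the number called higher ran from 15 (limma on log2 TPM) to 22, and from 18 to 21 with leave-one-out. By limma on log2(TPM + 1) and on log2(TPM + 0.1), Ezh1 was -0.05 and -0.05, Cbx6 -0.05 and -0.05, and Pcgf3 -0.04 and -0.05 (log2 fold change); the cause was not tested. Less the chromosome median, Ezh1 was -0.11 and Rybp -0.08, which follows from subtracting medians of 0.26 and 0.41.

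Called subunit transcripts numbered between 39 and 58 with leave-one-out, with fewer samples in each fit, and 65 with at least 10 counts in every sample. All genes called ran from 9804 to 12568. Other Polycomb genes called were 18, and 20 with DESeq2; called H3K4 methylation genes were 6 with either. The top paralogue's share did not overlap in 7 of 9 groups, and in 6 with estimated counts, where that of Pcgf2 overlapped, and in 7 to 8 with leave-one-out.

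With a replicate block, 12539 genes were called, 22 members higher and 11 lower, 25 other Polycomb genes, 7 H3K4 methylation genes and 53 subunit transcripts. Cbx6 was then called (0.12, adjusted p 0.025), and Aebp2-207 (1.01, 0.065) and Bcor-207 (-2.49, 0.066) were not. Correlations between samples of the same number in different conditions, after the condition was removed, were 0.38, 0.498 and 0.0638, and 5 of 6 samples correlated best with their own number; nothing in the labels says that the numbers pair samples.

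Of the 295 subunit transcripts, 180 had enough counts to be tested.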
